A study of Mus musculus with 2 samples.

Results

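The 10 genes described here encode chemokines, the small secreted or membrane-bound proteins that draw leukocytes into tissue, and were followed in single barcodes of mouse liver. They were listed by symbol (Cxcl1, Cxcl2, Ccl2, Ccl7, Cxcl9, Cxcl10, Cx3cl1, Cxcl16, Ccl3 and Ccl4) as chemokine genes of hepatocytes and myeloid cells, and make up 10 of the 32287 features counted. Wild-type (WT) C57BL/6J mice were infected at 4 weeks of age with AAV-shBicd2, an adeno-associated virus for a short hairpin against the dynein adaptor gene Bicd2, or with AAV-scramble, its scrambled control. A wait of 3 weeks followed, then an intravenous dose of concanavalin A (Con A) of 15 mg/kg for all mice, and the liver was collected after 6 hours, so the control group carried virus and Con A too and no untreated liver was analysed here. Each group was 1 library, so nothing checks the differences against replicates, the groups were not tested, and the 95% intervals in brackets cover counting error only. The promoter that drives the hairpin and the number of mice behind a library are not given in the sources used here.

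Con A, a plant lectin, stimulates T cells and thereby sets off an acute hepatitis in mice. Chemokines guide the leukocytes that follow: CXC chemokines such as Cxcl1 and Cxcl2 bind Cxcr2 on neutrophils, Ccl2 and Ccl7 bind Ccr2 on monocytes, and Cxcl9 and Cxcl10 bind Cxcr3 on activated T and NK cells. Their genes are switched on within hours by NF-kB and interferon signalling, in hepatocytes as well as in macrophages, and many of their RNAs are short-lived.

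The library labelled shBicd2 held 2941 barcodes after filtering and the library labelled scramble 2729, with medians of 1498 and 1502 UMIs (unique molecular identifiers, each a counted RNA molecule) and totals of 5417929 and 4892085. RNA of Bicd2, the targeted gene, stood no lower under the label shBicd2, at 19.7 CPM (UMIs of a gene scaled to the same total in each library or class) against 16.4 CPM in the library labelled scramble, a ratio of 1.21 (0.896 to 1.63), so the groups are named by their labels throughout. Barcodes with 0 UMIs of Ptprc (leukocytes), Ptprb (endothelium) and Dcn (fibroblasts) are called hepatocyte barcodes. They numbered 2765 (94.0%) in shBicd2 and 2542 (93.1%) in scramble. The 176 and 187 barcodes with a UMI of any of the 3 are called marker barcodes. The label of the hepatocyte barcodes was only partly borne out: 10 hepatocyte genes, Alb among them, made up 2.02% of UMIs in shBicd2 and 1.59% in scramble hepatocyte barcodes, but also 1.80% in shBicd2 and 1.24% in scramble marker barcodes. Among hepatocyte barcodes, 150 in shBicd2 and 51 in scramble met the marker list of another cell type, with at least 3 different markers of it, so both classes are mixtures divided by a rule. Over all kept barcodes the nuclear noncoding RNAs Neat1 and Malat1 stood at 45063 and 26792 CPM in shBicd2 and at 65836 and 36453 CPM in scramble. Alb stood at 1721 CPM in shBicd2 and 1072 CPM in scramble. The part of nuclear RNA in the chemokine levels was not tested.

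The genes sit in clusters (coordinates of GRCm38, also called mm10, from GENCODE). On chromosome 5, Cxcl1 (ENSMUSG00000029380, chr5:90891241-90893115, plus strand) lies 10755 bases before Cxcl2 (ENSMUSG00000058427, chr5:90903871-90905938, plus strand), and Cxcl9 (ENSMUSG00000029417, chr5:92321347-92328079) lies 18558 bases from Cxcl10 (ENSMUSG00000034855, chr5:92346638-92348889), both on the minus strand. On chromosome 11, 8258 bases separate Ccl2 (ENSMUSG00000035385, chr11:82035571-82037453, plus strand) from Ccl7 (ENSMUSG00000035373, chr11:82045712-82047525, plus strand), and 13228 bases separate Ccl3 (ENSMUSG00000000982, chr11:83647844-83649355, minus strand) from Ccl4 (ENSMUSG00000018930, chr11:83662584-83664683, plus strand). Cxcl16 (ENSMUSG00000018920, chr11:70453983-70459984, minus strand) is on the same chromosome and Cx3cl1 (ENSMUSG00000031778, chr8:94772009-94782427, plus strand) on chromosome 8. All 10 are annotated as protein coding. Genes of the opposite strand overlap Ccl2 (Gm17268), Cxcl10 (Art3) and Cxcl16 (Zmynd15), with 0, 7 and 26 UMIs in shBicd2 and 0, 1 and 15 UMIs in scramble. The sources used here do not say whether strand was used in counting.

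The pairs Cxcl1 with Cxcl2 and Cxcl9 with Cxcl10 are shown by their promoters, because each pair varied together from barcode to barcode. Pairs that are not neighbours, such as Cxcl2 with Cxcl10, did so too (correlations below). RefSeq promoter windows of GRCm38.p6 were at hand for 6 of the 10 genes, these 4 and Cx3cl1 and Ccl3. RefSeq starts can differ from the GENCODE bounds given above. Those of Cxcl1, Cxcl2 and Cx3cl1 lie inside the GENCODE gene, and most of the Cx3cl1 window (chr8:94771930-94772179) does too. The Ccl3 start lies outside its GENCODE gene, and the bases checked after it were not found in its GENCODE transcripts. The 250 bases before the RefSeq start are given 5′ to 3′ on the gene's strand, with capitals at each match, on either strand, to an NF-kB core (GGG and TTCC with 3 bases of any kind between them) or to a core of interferon-stimulated response elements (GAAA and GAAA with 2 bases of any kind between them). The motifs were picked after the sequences had been seen, and NF-kB core matches on the 2 strands may overlap.
Cxcl1 (chr5:90890995-90891244, plus strand): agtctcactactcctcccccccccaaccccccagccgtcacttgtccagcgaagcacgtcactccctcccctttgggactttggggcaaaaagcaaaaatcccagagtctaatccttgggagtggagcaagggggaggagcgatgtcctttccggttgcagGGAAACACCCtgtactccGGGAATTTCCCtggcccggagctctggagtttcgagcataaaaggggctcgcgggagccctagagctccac
Cxcl2 (chr5:90903649-90903898, plus strand): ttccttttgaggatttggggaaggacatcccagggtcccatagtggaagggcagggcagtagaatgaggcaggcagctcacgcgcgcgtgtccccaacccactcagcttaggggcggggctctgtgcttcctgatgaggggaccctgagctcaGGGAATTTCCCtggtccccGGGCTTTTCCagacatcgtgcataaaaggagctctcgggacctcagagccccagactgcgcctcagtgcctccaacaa
Cxcl9 (chr5:92328080-92328329, minus strand): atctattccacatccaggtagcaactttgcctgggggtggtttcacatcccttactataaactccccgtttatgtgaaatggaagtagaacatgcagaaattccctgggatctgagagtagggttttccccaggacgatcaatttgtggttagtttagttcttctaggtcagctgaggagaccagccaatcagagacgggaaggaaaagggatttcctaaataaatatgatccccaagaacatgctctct
Cxcl10 (chr5:92348890-92349139, minus strand): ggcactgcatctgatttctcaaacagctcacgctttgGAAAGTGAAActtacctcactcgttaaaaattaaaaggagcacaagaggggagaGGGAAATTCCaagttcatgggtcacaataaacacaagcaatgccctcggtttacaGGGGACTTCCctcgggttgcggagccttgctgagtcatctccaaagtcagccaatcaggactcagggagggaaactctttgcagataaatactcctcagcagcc
The NF-kB core had 3 matches in Cxcl1, 3 in Cxcl2 and 2 in Cxcl10, and no match to these letters in Cxcl9, Cx3cl1 or Ccl3. It occurred in 4.65% of 32851 windows of the same length. The longest run that Cxcl1 and Cxcl2 shared was 14 bases, and it holds a pair of overlapping matches. It starts at position -71 from the RefSeq start of Cxcl1 and -97 from that of Cxcl2. The Cxcl2 RefSeq start lies further inside its GENCODE gene than that of Cxcl1, so these 2 positions depend on the annotation. The interferon core matched Cxcl10 alone among the 6, at positions -213 to -204, and 2.98% of all windows. Of 3 other motifs searched on both strands, TATAAA (12.4% of windows) matched Cxcl9 at positions -195 to -190 and Cx3cl1 at -6 to -1. The Cx3cl1 match lies inside its GENCODE gene. TGANTCA (6.75%), an AP-1 core, matched Cxcl10, and a STAT core of TTC and GAA with 3 bases between them (7.02%) matched none of the 6. A match is a description of letters and not a binding site.

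In hepatocyte barcodes of both libraries the same 5 chemokines were abundant and the other 5 were scarce. Levels are UMIs of 3′ ends and were not divided by gene length, since each molecule is counted once, but capture of each 3′ end also sets them. In shBicd2 the order was Cxcl1 (2647 CPM), Cxcl10 (1718), Cxcl2 (1164), Cxcl9 (1082), Ccl2 (599), Cxcl16 (18.9), Ccl4 (13.8), Ccl7 (11.1), Ccl3 (1.56) and Cx3cl1 (0.779). In scramble it was Cxcl1 (2657 CPM), Cxcl10 (2117), Cxcl9 (1112), Cxcl2 (605), Ccl2 (169), Ccl4 (36.1), Ccl7 (8.70), Cxcl16 (7.83), Ccl3 (4.57) and Cx3cl1 (0.217). The intervals of neighbours among the upper 5 did not overlap in either library. Among the scarce genes, Cxcl16 and Ccl4, Ccl4 and Ccl7, and Ccl3 and Cx3cl1 overlapped in shBicd2, and Ccl7 and Cxcl16, and Cxcl16 and Ccl3, in scramble.

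Set against each other, the libraries differed in single chemokines rather than in all of them. A gene is called here where it has at least 50 UMIs over both sums and its whole interval lies beyond 1.5-fold. Of the 10 members 8 had 50 UMIs in hepatocyte barcodes, and 3 of them, Cxcl2, Ccl2 and Cxcl16, were called higher in shBicd2, a call made for 9.22% of 9628 genes. Ccl4 alone was called lower, as were 3.97% of the genes. The median log2 ratio of the 8 was 0.17, beside 0.13 over all genes measured. Cx3cl1 and Ccl3 had too few UMIs to be measured.

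**Figure D1:**
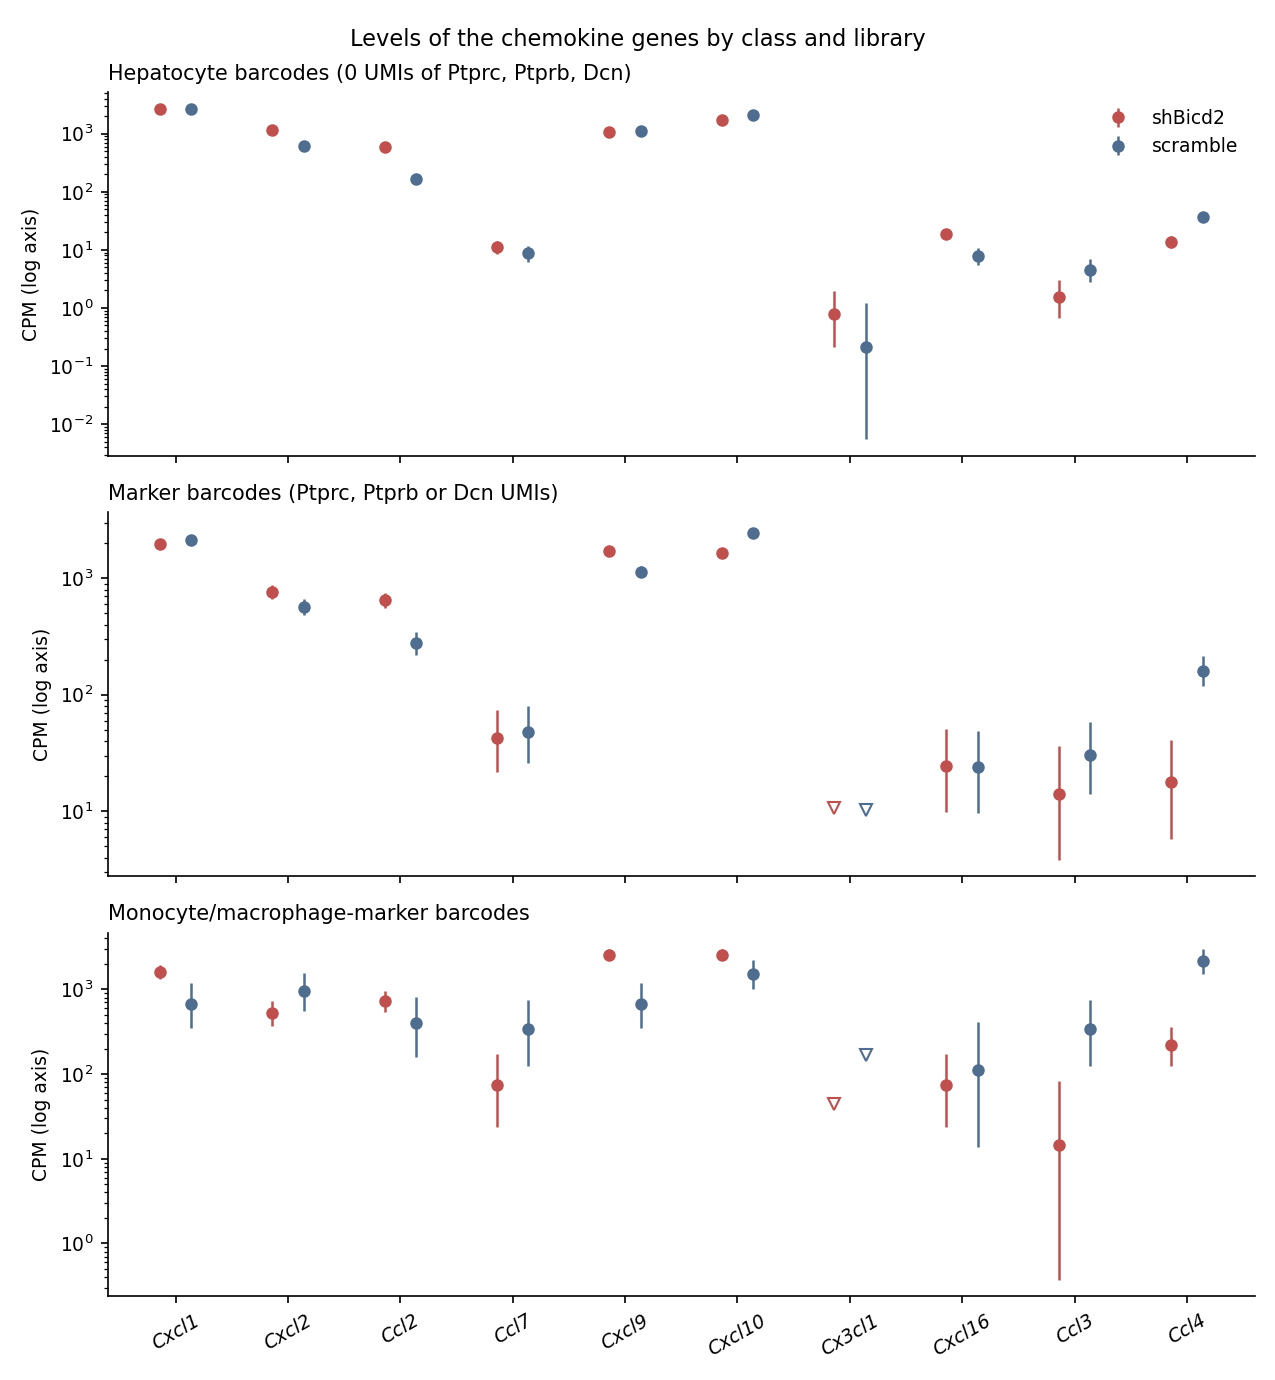
Levels of the 10 chemokine genes in CPM (log axes) in hepatocyte, marker and monocyte/macrophage-marker barcodes, shBicd2 in red and scramble in blue. Points are summed levels of 1 library with exact Poisson 95% intervals, open triangles mark the limit of 3 UMIs where none was counted, and Ccl4 stands lower in shBicd2 in all 3 panels.

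The neutrophil attractants Cxcl1 and Cxcl2 behaved differently. Cxcl1 stood at 2647 CPM (2603 to 2692) in shBicd2 and 2657 CPM (2610 to 2704) in scramble hepatocyte barcodes, a ratio of 0.996 (0.972 to 1.02). Split by the reporter EGFP, Cxcl1 was lower in shBicd2 both with and without an EGFP UMI (values below). Cxcl2 stood at 1164 CPM (1134 to 1194) in shBicd2 and 605 CPM (583 to 628) in scramble, a ratio of 1.92 (1.84 to 2.01). More barcodes of shBicd2 held Cxcl2: at a fixed depth of 1000 UMIs, 34.1% (32.0 to 36.2) of 1998 shBicd2 and 18.4% (16.7 to 20.3) of 1876 scramble hepatocyte barcodes had a Cxcl2 UMI, and 41.2% and 21.9% did at full depth. For Cxcl1 the thinned shares were 73.9% and 76.4%. Neutrophil markers, 11 genes, summed to 319 CPM in shBicd2 and 63.5 CPM in scramble hepatocyte barcodes, with 11 of 11 and 10 of 11 detected and only Ly6g at 0 in scramble. Other lists were also higher in shBicd2, such as erythroid (655 against 306 CPM), endothelial (74.4 against 39.4 CPM) and T/NK cell markers (21.8 against 12.6 CPM). Mesothelial markers were lower (4.87 against 5.65 CPM). A link between marker sums and chemokine levels was not tested. Among hepatocyte barcodes that met no list of another cell type the Cxcl2 ratio was 1.94 (1.85 to 2.03).

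The monocyte attractants Ccl2 and Ccl7, neighbours on chromosome 11, also parted. Ccl2 had the largest ratio of the 8 measured genes in hepatocyte barcodes, 3.54 (3.27 to 3.84), with 599 CPM (578 to 620) in shBicd2 and 169 CPM (157 to 181) in scramble. At the fixed depth 23.4% of shBicd2 and 8.80% of scramble barcodes held it. Ccl7 stood at 11.1 CPM (57 UMIs) in shBicd2 and 8.70 CPM (40 UMIs) in scramble, a ratio of 1.28 whose interval, 0.837 to 1.96, includes 1. Monocyte/macrophage markers summed to 172 CPM in shBicd2 and 83.3 CPM in scramble hepatocyte barcodes, with 18 of 20 (Timd4 and Ms4a7 at 0) and 19 of 20 (F13a1 at 0) detected. Without the barcodes that met a list of another cell type the Ccl2 ratio was 3.66 (3.38 to 3.97), as large as with them.

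The T cell attractants Cxcl9 and Cxcl10, both interferon-induced, were near or below equality. Cxcl9 stood at 1082 CPM (1054 to 1111) in shBicd2 and 1112 CPM (1082 to 1143) in scramble hepatocyte barcodes, a ratio of 0.973 (0.937 to 1.01). Its level was alike over all hepatocyte barcodes, but lower in shBicd2 both with and without an EGFP UMI (values below). Its spread was not alike. At the fixed depth 45.3% (43.1 to 47.5) of shBicd2 and 36.1% (34.0 to 38.4) of scramble barcodes had a Cxcl9 UMI. The 10% of barcodes with most Cxcl9 held 51.8% of its UMIs in shBicd2 and 62.3% in scramble. Cxcl10 stood at 1718 CPM (1683 to 1755) in shBicd2 and 2117 CPM (2075 to 2159) in scramble, a ratio of 0.812 (0.789 to 0.836), below 1 but short of the 1.5-fold call. The thinned shares of barcodes with Cxcl10 were 42.3% in shBicd2 and 41.2% in scramble. Barcodes with 10 or more Cxcl10 UMIs at the fixed depth were 4.30% in shBicd2 and 5.97% in scramble.

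The membrane-bound chemokines were scarce. Cxcl16, a Cxcr6 ligand that is also a scavenger receptor, had 97 UMIs (18.9 CPM) in shBicd2 and 36 UMIs (7.83 CPM) in scramble hepatocyte barcodes, a ratio of 2.41 (1.63 to 3.64). That ratio was no longer called with TMM scaling, a trimmed mean of log ratios (2.15, 1.46 to 3.25), or at no more than 1% mitochondrial UMIs (2.26, 1.47 to 3.56), and as an unweighted mean over barcodes it was 1.48. Cx3cl1, the Cx3cr1 ligand fractalkine, had 4 UMIs in shBicd2 and 1 UMI in scramble, and no ratio is given. Their sheddases Adam10 and Adam17 stood at 42.3 and 93.3 CPM in shBicd2 against 25.7 and 63.5 CPM in scramble, with ratios of 1.65 (1.31 to 2.08) and 1.47 (1.27 to 1.71), neither called.

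Ccl3 and Ccl4, typical products of activated macrophages, NK and T cells, had fewer UMIs in shBicd2. Ccl4 had 71 UMIs (13.8 CPM, 10.8 to 17.4) in shBicd2 and 166 UMIs (36.1 CPM, 30.8 to 42.0) in scramble hepatocyte barcodes, a ratio of 0.383 (0.286 to 0.509). Ccl3 had 8 UMIs in shBicd2 and 21 UMIs in scramble, a ratio of 0.341 with an interval of 0.131 to 0.802. Few barcodes carried the Ccl4 UMIs. At full depth 2.06% of shBicd2 and 3.03% of scramble barcodes held Ccl4, and 26 of the 166 scramble UMIs lay in 1 barcode, without which, and without the highest shBicd2 barcode, the ratio was 0.409 (0.300 to 0.554). At the fixed depth, with 65 UMIs left, it was 0.587 (0.341 to 0.991), no longer called. The shallowest barcodes, 1 of 4 groups by depth, held 20 of the 71 shBicd2 and 94 of the 166 scramble UMIs. The 1.16% of shBicd2 and 0.315% of scramble hepatocyte barcodes that met the monocyte/macrophage list held 19.7% and 7.83% of the Ccl4 UMIs.

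**Figure D2:**
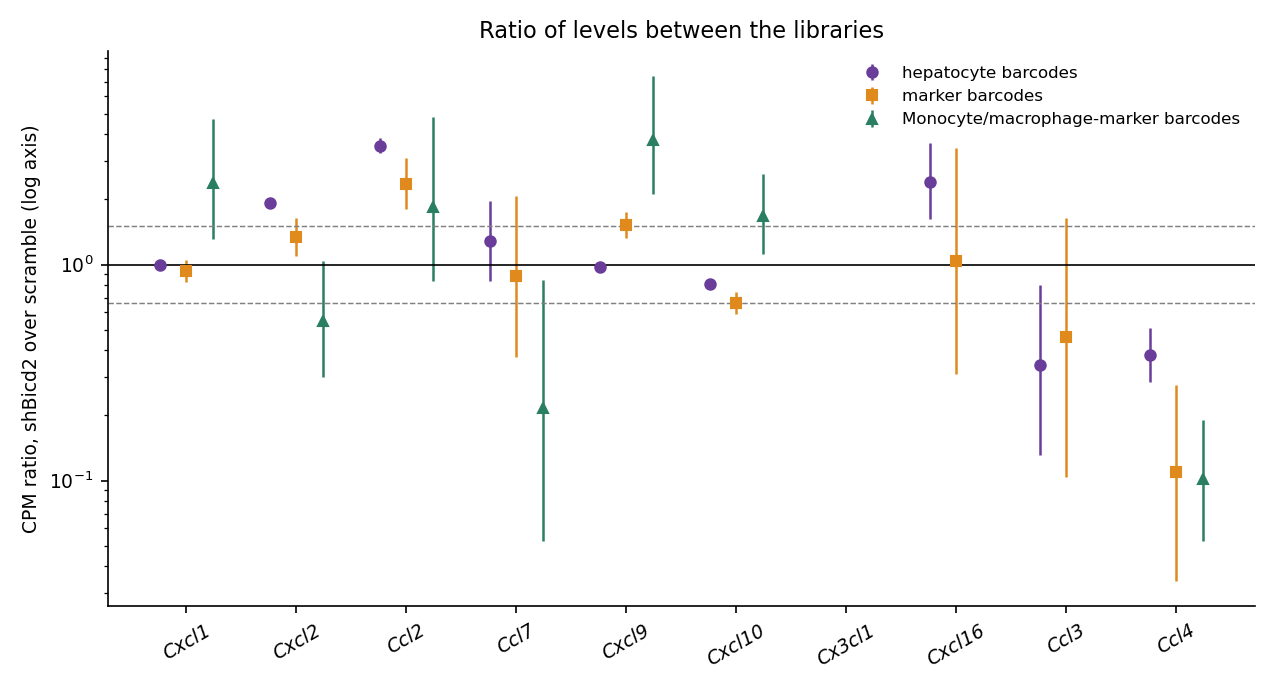
Ratio of each chemokine gene's level, shBicd2 over scramble (log axis), in hepatocyte barcodes (circles), marker barcodes (squares) and monocyte/macrophage-marker barcodes (triangles), with exact 95% counting intervals, for genes with at least 10 UMIs over both sums and a UMI in each. The solid line is equality and the dashed lines are 1.5-fold; Ccl2 lies above and Ccl4 below in hepatocyte and marker barcodes.

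Free RNA in droplets can give UMIs in cells that do not express a gene, so the shares were set beside those of lymphocytes. B and T lymphocytes do not make Cxcl1, Cxcl2 or Ccl2 in quantity, yet of the 14 shBicd2 and 11 scramble barcodes with lymphocyte markers, 7 barcodes (interval of the share 23.0% to 77.0%) and 5 barcodes (16.7% to 76.6%) had a Cxcl1 UMI, 28.6% (8.39 to 58.1) and 18.2% (2.28 to 51.8) a Cxcl2 UMI, and 14.3% (1.78 to 42.8) and 18.2% (2.28 to 51.8) a Ccl2 UMI. Their median depth was 986 UMIs in shBicd2 and 1009 in scramble, against 1526 and 1525 for hepatocyte barcodes. The hepatocyte genes made up 1.69% of UMIs in shBicd2 and 0.940% in scramble lymphocyte barcodes, against 2.02% and 1.59% in hepatocyte barcodes. Lymphocyte barcodes therefore cannot stand for cells free of hepatocyte RNA, and the source of that RNA was not tested. The unthinned hepatocyte shares were 77.0% and 80.2% for Cxcl1, 41.2% and 21.9% for Cxcl2, and 31.5% and 12.9% for Ccl2. The Cxcl1 share was level with the upper lymphocyte limit in shBicd2 (77.0%) and above it in scramble (80.2% against 76.6%), at unequal depth. At the fixed depth it was 73.9% in shBicd2, inside the lymphocyte interval of 9.90% to 81.6%. In scramble it was 76.4%, inside 11.8% to 88.2%. In both libraries the unthinned Cxcl2, Ccl2, Cxcl9 and Cxcl10 shares also lay inside the lymphocyte intervals. These shares, and those of Cxcl1 at the fixed depth, cannot be told from those of lymphocyte barcodes by this comparison. The scramble Ccl2 share was also no higher than that of the few lymphocyte barcodes. Nor were the Cxcl9 share in shBicd2 (57.0% against 57.1%) and the Cxcl10 share in scramble (48.9% against 54.5%). For Cxcl9 and Cxcl10 no lack of expression in lymphocytes is assumed, so their comparison is a description. Ccl2 in lymphocyte barcodes was at 529 CPM (282 to 905) in shBicd2, with 12 of its 13 UMIs in 1 barcode, and at 222 CPM (45.8 to 649) in scramble. The few lymphocyte barcodes leave wide intervals and held hepatocyte RNA too, so the part of free RNA in the levels was not measured.

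Evenly spread RNA would give a Poisson number of UMIs per barcode at the fixed depth, and none of the 5 abundant chemokines followed that. The spread of genes other than the 10 members was not computed, so it is not read as a trait of chemokines. Over thinned hepatocyte barcodes the variance was 3.47 times the mean in shBicd2 and 2.73 times in scramble for Cxcl1, 5.42 and 5.31 times for Cxcl2, 3.47 and 3.01 times for Ccl2, 3.28 and 4.50 times for Cxcl9, and 6.74 and 8.21 times for Cxcl10. For Cxcl10 a Poisson of the same mean would have put a UMI in 80.4% of shBicd2 and 84.8% of scramble barcodes, where 42.3% and 41.2% had one. Cxcl2 was the most concentrated of the 4 that over 10% of barcodes held in each library, with 65.4% of its UMIs in the top 10% of barcodes in shBicd2 and 83.7% in scramble.

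**Figure D3:**
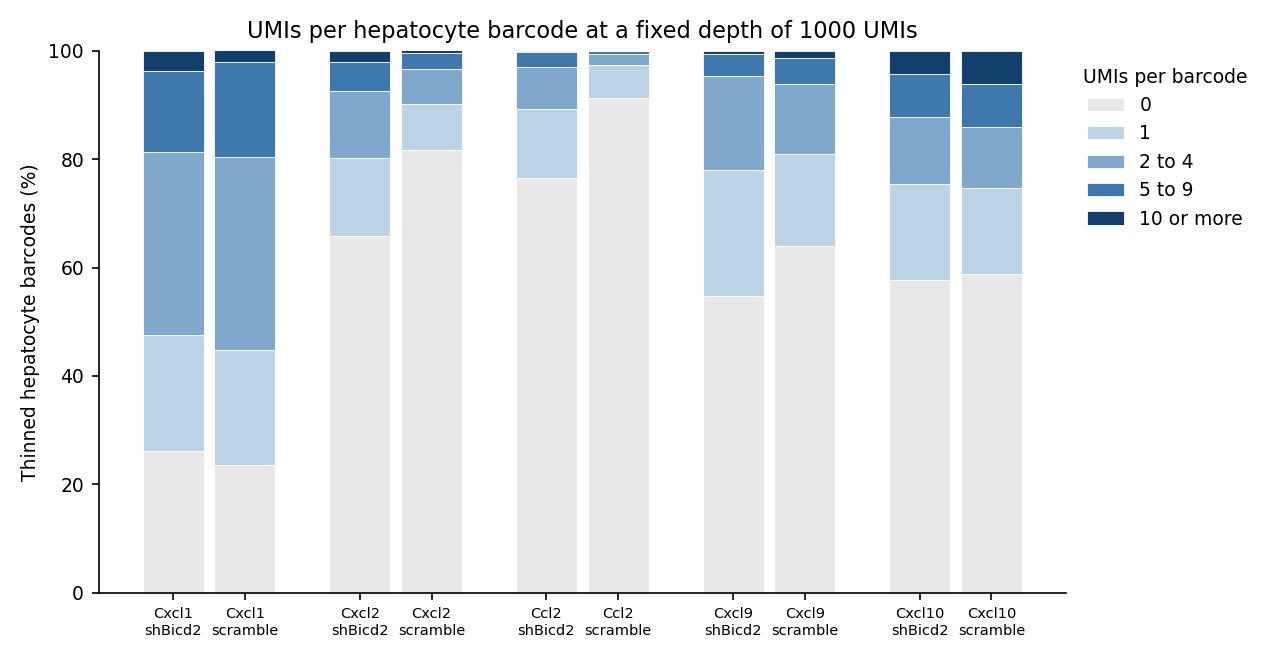
Share of hepatocyte barcodes, each thinned to 1000 UMIs (1998 in shBicd2, 1876 in scramble), by the number of UMIs of 5 chemokine genes. Cxcl1 had the fewest empty barcodes (26.1% in shBicd2, 23.6% in scramble) and Ccl2 the most (76.6% in shBicd2, 91.2% in scramble).

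The abundant chemokines tended to occur in the same barcodes. All 5 were detected together in 7.11% of thinned shBicd2 and 2.29% of scramble hepatocyte barcodes, and none of the 5 in 8.31% and 12.5%. Correlations of log counts over barcodes are given as descriptions, since barcodes of a library share its depth, free RNA and mixture of cells. Cxcl1 and Cxcl2 correlated at 0.53 over 1998 shBicd2 barcodes and 0.38 over 1876 scramble barcodes, and Cxcl9 and Cxcl10 at 0.42 and 0.64. The pair Cxcl2 and Ccl2, on different chromosomes, was at 0.46 and 0.23, and Cxcl2 and Cxcl10 at 0.49 and 0.42. Cxcl1 and Cxcl9 had the lowest correlation of the 10 pairs in shBicd2, 0.14, and stood at 0.25 in scramble. A Ccl2 UMI was found in 42.3% of shBicd2 barcodes with Cxcl2 and in 13.6% without it, and in 21.4% and 5.95% of the scramble barcodes with and without Cxcl2.

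**Figure D4:**
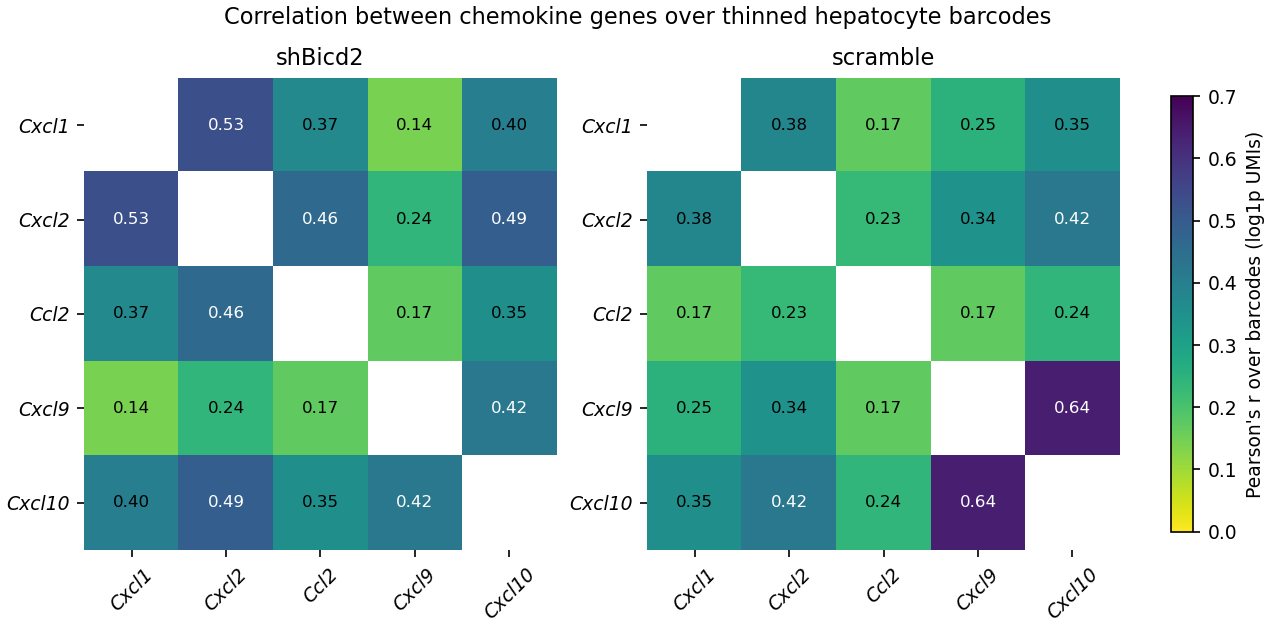
Pearson's correlation of log counts between 5 chemokine genes over thinned hepatocyte barcodes, shBicd2 on the left and scramble on the right. Cxcl1 with Cxcl2 is the strongest pair in shBicd2 (0.53) and Cxcl9 with Cxcl10 in scramble (0.64).

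Among 2566 genes compared over the same barcodes, by the lower of the 2 libraries' correlations, the nearest to Cxcl1 were Cxcl2, Cxcl10 and Cfb, a factor of the alternative complement pathway (0.32 in shBicd2, 0.35 in scramble). Cxcl10 was nearest to Irf1, a transcription factor induced by interferon gamma (0.62 and 0.56), then to H3f3b, a histone variant (0.55 and 0.51), and Zfp36, which speeds decay of AU-rich RNAs (0.48 and 0.44). Cxcl9 followed Cxcl10, Irf1 (0.31 and 0.45) and Gbp6, an interferon-induced GTPase (0.31 and 0.34). Cxcl2 followed Cxcl10, Irf1 (0.51 and 0.41) and Pcyox1 (0.39 and 0.43). Ccl2 followed Cxcl10, Cxcl2 and Rnd1 (0.40 and 0.22).

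Depth and the reporter EGFP moved with the levels in hepatocyte barcodes. With barcodes put in 4 groups of near equal number, from fewest to most UMIs, Cxcl1 stood at 1516, 2263, 2603 and 3034 CPM in shBicd2 and at 2007, 2344, 2449 and 3036 CPM in scramble, so it was higher in deeper barcodes of both. Ccl2 stood at 457, 466, 589 and 678 CPM in shBicd2 and at 172, 162, 118 and 200 CPM in scramble, and each shBicd2 group was above each scramble group. Ccl4 was highest in the shallowest barcodes, at 40.1, 10.7, 11.2 and 11 CPM in shBicd2 and at 198, 24, 17.4 and 15.0 CPM in scramble. EGFP itself differed between the libraries, at 894 CPM in shBicd2 and 69.3 CPM in scramble, and 27.9% of shBicd2 and 6.29% of scramble hepatocyte barcodes held an EGFP UMI.

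Barcodes with an EGFP UMI had more RNA of the 5 abundant chemokines in both libraries, and were deeper. Their median was 2051 UMIs in shBicd2, against 1363 without EGFP, and 2182 UMIs in scramble, against 1489 without. Cxcl10 stood at 3124 CPM in barcodes with EGFP and 921 CPM in those without in shBicd2, and at 5682 and 1757 CPM in scramble. Cxcl1 stood at 3419 and 2210 CPM in shBicd2 and at 4259 and 2495 CPM in scramble. Cxcl9 stood at 1488 and 852 CPM in shBicd2 and at 2824 and 940 CPM in scramble. Within each EGFP group both were lower in shBicd2, with intervals apart, though over all hepatocyte barcodes their ratios were 0.996 and 0.973. Cxcl2 stood at 1911 and 740 CPM in shBicd2 and at 1907 and 474 CPM in scramble, and the intervals with EGFP, 1848 to 1975 CPM in shBicd2 and 1778 to 2044 CPM in scramble, overlapped. Ccl2 stood at 840 and 461 CPM in shBicd2 and at 283 and 158 CPM in scramble, apart in both. Ccl4 ran the other way, at 10.2 CPM with and 15.9 CPM without EGFP in shBicd2, and at 11.9 and 38.5 CPM in scramble, and its intervals, 6.16 to 16.0 CPM with and 11.9 to 20.8 CPM without EGFP in shBicd2 and 3.86 to 27.7 CPM with and 32.8 to 45 CPM without in scramble, overlapped in shBicd2 but not in scramble. Without EGFP barcodes the ratio of Cxcl10 was 0.524 (0.502 to 0.547), past the call for lower, that of Cxcl2 was 1.56 (1.47 to 1.66), no longer called, and that of Ccl2 was 2.93 (2.67 to 3.22). The part of EGFP and depth in these results was not tested.

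**Figure D5:**
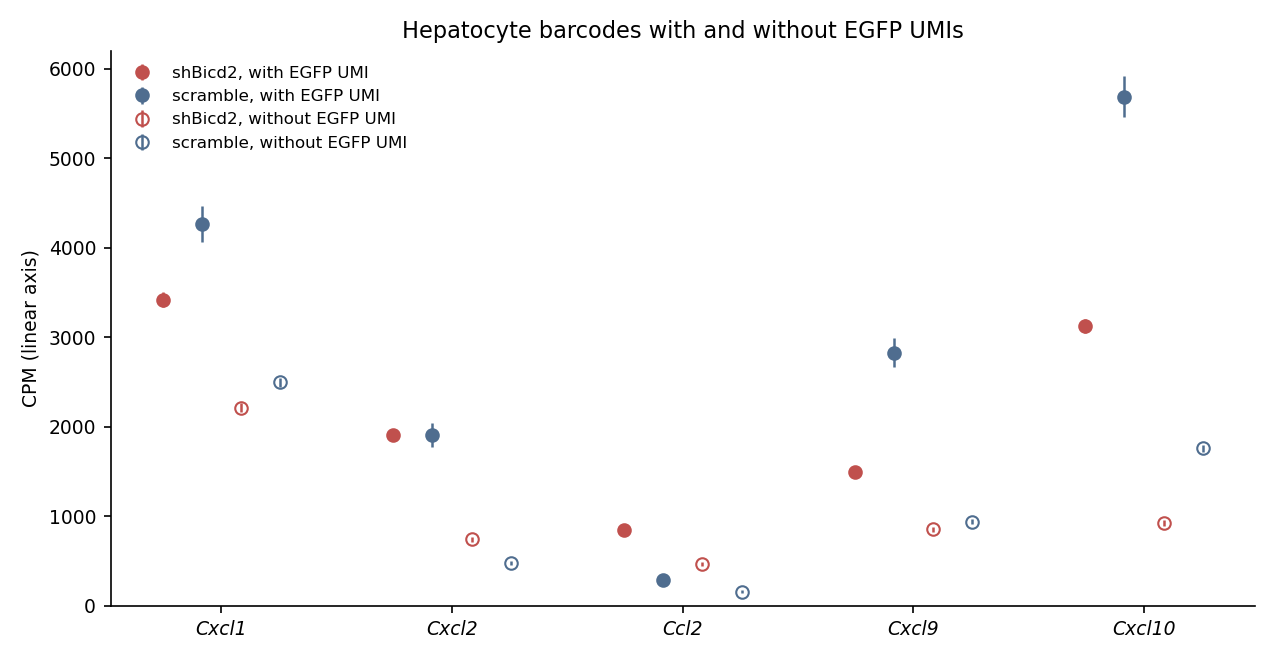
Levels of 5 chemokine genes (CPM, linear axis from 0) in hepatocyte barcodes with an EGFP UMI (filled) and without (open), shBicd2 in red and scramble in blue, with exact Poisson 95% intervals that are mostly smaller than the points. In both libraries each gene stood higher in barcodes with EGFP.

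Marker barcodes, the class with leukocyte, endothelial or fibroblast UMIs, were set against hepatocyte barcodes of the same library. In shBicd2, 8 of the 10 genes were measured and Ccl7 alone was called higher in marker barcodes, a call made for 2.82% of 8507 genes. It stood at 42.4 CPM (12 UMIs) in marker and 11.1 CPM in hepatocyte barcodes, a ratio of 3.82 (1.86 to 7.19). The call ended after thinning (3.62), in strict classes (3.81) and without EGFP barcodes (7.47, on 40 UMIs). It also ended at no more than 1% mitochondrial UMIs (3.47). Cxcl9 was called higher in strict classes (2.15) and at no more than 1% mitochondrial UMIs (1.88), and Cxcl2 lower with TMM scaling (0.557). In strict marker barcodes of shBicd2, 1 barcode held 110 of the 172 Cxcl9 UMIs. A Cxcl9 UMI was in 35.3% of strict marker and 49.6% of strict hepatocyte barcodes of shBicd2. The strict ratio without that 1 barcode was not computed. In the main classes the Cxcl9 ratio without the highest barcode of each class was 1.30, uncalled. In scramble 7 were measured and Ccl7 and Ccl4 were called higher, against 3.08% of 7824 genes. Ccl7 had 47.7 CPM (14 UMIs) in marker and 8.70 CPM in hepatocyte barcodes, a ratio of 5.48 (2.76 to 10.3), and Ccl4 had 160 CPM (47 UMIs) and 36.1 CPM, a ratio of 4.44 (3.14 to 6.17). These ratios moved both ways with the setting, to 1.46 (Ccl7) and 2.37 (Ccl4) after thinning, both uncalled, and to 14.5 (Ccl7, uncalled on 19 UMIs) and 24.9 (Ccl4, called) in strict classes. Uncalled members whose intervals excluded 1 were Cxcl9 at 1.60 (1.45 to 1.75) and Cxcl2 at 0.652 (0.567 to 0.748) in shBicd2, and Ccl2 at 1.63 (1.28 to 2.06), Cxcl10 at 1.17 (1.08 to 1.26) and Cxcl16 at 3.05 (1.14 to 6.94) in scramble. Ccl3, on 12 UMIs in shBicd2 and 30 UMIs in scramble, was at 9.07 (2.0 to 33.8) and 6.72 (2.71 to 15.3). No member was called lower in marker barcodes, in shBicd2 (0.165% of genes) or scramble (0.179%). Cxcl1 was somewhat lower in marker barcodes, at ratios of 0.744 (0.683 to 0.810) in shBicd2 and 0.794 (0.731 to 0.861) in scramble.

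Between the libraries, marker barcodes showed the same calls for Ccl2 and Ccl4 as hepatocyte barcodes. Of 6 members measured, Ccl2 was called higher in shBicd2, beside 6.21% of 2044 genes, and Ccl4 was called lower, beside 4.50%. Ccl2 stood at 650 CPM (559 to 751) in shBicd2 and 276 CPM (219 to 343) in scramble, a ratio of 2.35 (1.80 to 3.10), which without EGFP barcodes was 1.89 and no longer called, and as an unweighted mean over barcodes 1.54. Ccl4 stood at 17.7 CPM (5 UMIs) in shBicd2 and 160 CPM (47 UMIs) in scramble, a ratio of 0.110 (0.0342 to 0.276), and no shBicd2 marker barcode held more than 1 Ccl4 UMI. Without the highest barcode of each library the ratio was 0.126, without EGFP barcodes 0.171 and at no more than 1% mitochondrial UMIs 0.0646, each on fewer than the 50 UMIs a call needs, and as an unweighted mean over barcodes it was 0.166. All these Ccl4 UMIs lay in barcodes with Ptprc, the leukocyte marker CD45. Ccl2 split by marker: it stood at 578 CPM in shBicd2 and 180 CPM in scramble Ptprc barcodes, a ratio of 3.20 (2.25 to 4.63), but at 834 and 1082 CPM in Dcn barcodes, a ratio of 0.770 (0.514 to 1.18). The difference between the Ptprc and Dcn ratios was not tested. The ratio of Cxcl9 was 1.52 (1.32 to 1.75), whereas that of Cxcl10 was 0.664 (0.590 to 0.747), with thinned shares of 41.3% in shBicd2 and 43.4% in scramble for Cxcl9 and of 41.3% and 58.6% for Cxcl10. A single shBicd2 barcode of 8146 UMIs held 110 of the 489 Cxcl9 UMIs and 89 of the 464 Cxcl10 UMIs, and without the highest barcodes the ratios were 1.36 and 0.614. Cx3cl1 had 0 UMIs in marker barcodes, which by a limit of 3 UMIs per library allows up to 10.6 CPM in shBicd2 and 10.2 CPM in scramble. The makeup of the class differed too: neutrophil markers summed to 1847 CPM in shBicd2 (11 of 11 detected) and 153 CPM in scramble (7 of 11, with Mmp8, Mmp9, Ly6g and Cd177 at 0), and monocyte/macrophage markers to 752 CPM (16 of 20) and 388 CPM (16 of 20). Its part in the ratios was not tested.

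Myeloid cells were looked for among barcodes with at least 3 different monocyte/macrophage markers and more of these than of any other cell type but hepatocytes, 53 in shBicd2 and 19 in scramble, of which 32 and 8 had no Ptprc, Ptprb or Dcn UMI. Their marker list summed to 4682 CPM in shBicd2 (20 of 20 detected) and 6452 CPM in scramble (18 of 20, Adgre1 and F13a1 at 0), below the sum of the 10 hepatocyte markers in the same barcodes, 11624 CPM in shBicd2 and 7018 CPM in scramble. Ccl4 stood at 220 CPM (15 UMIs) in shBicd2 and 2151 CPM (38 UMIs) in scramble, a ratio of 0.102 (0.0523 to 0.190), and 13.2% (5.48 to 25.3) of shBicd2 and 42.1% (20.3 to 66.5) of scramble barcodes held it. Of these Ccl4 UMIs, 14 in shBicd2 and 13 in scramble lay in barcodes that also count as hepatocyte barcodes, so no ratio between the classes is given. In shBicd2 7 of the 15 lay in 1 barcode and in scramble 14 of the 38, and without the highest barcode of each library Ccl4 stood at 119 CPM in shBicd2 and 1439 CPM in scramble. Ccl3 had 1 UMI in shBicd2 and 6 UMIs in scramble, and Ccl7 had 5 and 6 UMIs, or 73.4 and 340 CPM. Medians were 837 UMIs in shBicd2 and 749 in scramble and mitochondrial medians were 2.05% and 0.551%, and neutrophil markers summed to 528 CPM (4 of 11) and 226 CPM (1 of 11). Their part in the Ccl4 difference was not tested.

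Monocyte/macrophage-marker barcodes also held the chemokines that were abundant in hepatocyte barcodes. Cxcl1 stood at 1614 CPM in shBicd2 and 679 CPM in scramble, Cxcl2 at 528 and 962 CPM, and Ccl2 at 734 and 396 CPM. Cxcl9 and Cxcl10 both stood at 2568 CPM in shBicd2, against 679 CPM (Cxcl9) and 1528 CPM (Cxcl10) in scramble. The barcode of 8146 UMIs named above held 62.9% of these Cxcl9 UMIs and 50.9% of these Cxcl10 UMIs. Without the highest barcode of each library they stood at 1084 and 1434 CPM in shBicd2, against 466 and 1107 CPM in scramble. Neutrophil-marker barcodes, 49 in shBicd2 and 7 in scramble, had no Ccl3 or Ccl7 UMI, and Cxcl1 at 1853 and 1544 CPM.

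Other genes of the chemokine system were read against the 9.22% of genes called higher and 3.97% called lower in hepatocyte barcodes. Of 26 further chemokine genes listed, 25 were in the files and 5 had 50 UMIs, and none was called in either direction. Ccl25, the ligand of Ccr9, stood at 34.7 CPM in shBicd2 and 54.6 CPM in scramble, a ratio of 0.635 (0.521 to 0.773), Cxcl12, the ligand of Cxcr4, at 16.2 and 31.1 CPM, Ccl9 at 29.2 and 16.1 CPM, Ccl5 at 8.18 and 5.44 CPM, and Ccl24 at 6.62 and 5.65 CPM. Of 23 receptor genes 3 were measured. Ccrl2, an atypical receptor and the one with most UMIs, stood at 95 CPM in shBicd2 and 70.5 CPM in scramble, a ratio of 1.35 (1.17 to 1.56). Cxcr4 alone was called higher, at 19.5 CPM (100 UMIs) in shBicd2 and 2.83 CPM (13 UMIs) in scramble, a ratio of 6.89 (3.85 to 13.4), beside the neutrophil marker levels given above for these barcodes. Of 5 genes for shedding, binding and trimming chemokines all were measured, and Sdc1, a heparan sulfate proteoglycan, was called higher at 103 CPM in shBicd2 and 48.5 CPM in scramble, a ratio of 2.13 (1.82 to 2.50). The more abundant Sdc4, of the same family, stood at 1699 CPM in shBicd2 and 1571 CPM in scramble, a ratio of 1.08 (1.05 to 1.12). Dpp4, a protease that trims chemokines, was at a ratio of 1.51 (1.10 to 2.07).

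Among 21 genes that control induction or RNA decay, 20 were measured in hepatocyte barcodes. Ifngr1, a chain of the interferon gamma receptor and the 1 called higher and chosen after its values were seen, stood at 39.0 CPM in shBicd2 and 16.1 CPM in scramble, a ratio of 2.42 (1.85 to 3.20), and none was called lower. Irf1 was at a ratio of 1.51 (1.45 to 1.57) and Nfkbia, the inhibitor of NF-kB that NF-kB itself induces, at 1.45 (1.38 to 1.52), while Zfp36 was at 0.947 (0.920 to 0.974), Zfp36l1 at 0.739 (0.714 to 0.764), the receptor gene Il1r1 at 0.961 (0.930 to 0.992) and Tnfaip3, which dampens NF-kB, at 1.14 (1.07 to 1.21). The median log2 ratio of the 20 was 0.15. In marker barcodes 15 of the 21 were measured and Irf8, a transcription factor of monocytes and B cells, was called lower, beside the 6.21% of genes called higher and 4.50% lower in that class, at 311 CPM in shBicd2 and 678 CPM in scramble, a ratio of 0.458 (0.352 to 0.592).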

How the data were processed

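Single-barcode RNA of mouse liver, 1 library per group, was profiled with a 10x 3' v3.1 kit according to the labels. The authors deposited raw UMI counts per gene and barcode. The file headers name Cell Ranger 6.1.2, while the submitters' processing notes list Cell Ranger 6.0.1, Seurat 4.0.3 and mm10. Dissociation, doublet removal before deposit and counting of introns are not given in the sources used here.

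The 10 members, the marker lists and the 4 lists of other genes were chosen with earlier results of these data known. Members are all named, list genes are named from the 6 with most UMIs per list, with Ifngr1 added as the 1 call outside them, and the genes most like a member by correlation are named too (3 per member with at least 500 UMIs in each library, among genes in at least 5% of thinned barcodes).

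The libraries held 3038 (shBicd2) and 2805 (scramble) barcodes with 5624055 and 5086306 UMIs, and 3 barcode sequences occurred in both. Barcodes under 200 genes or above 25% mitochondrial UMIs were dropped, and the highest Scrublet scores (scanpy 1.11.5) were removed at 0.8% per 1000 barcodes, 73 and 62. UMIs were summed per library and class and divided by the class total (CPM) in Python 3.11.15 (pandas 2.3.3, numpy 2.4.6, scipy 1.17.1). Intervals are exact Poisson for CPM, Clopper-Pearson for shares and exact conditional binomial for ratios. Where a class had 0 UMIs, the limit given is that of 3 UMIs per library. Log2 ratios had 0.5 added to each sum. For thinned values 1000 UMIs were drawn without replacement per barcode, which left out 767 shBicd2 and 666 scramble hepatocyte barcodes. The intervals and calls were run on simulated Poisson counts, the model that the intervals themselves assume. That checks the calculation only, since the abundant chemokines varied more over barcodes than a Poisson. Alternatives were all deposited barcodes, thinning, strict classes, no EGFP barcodes, TMM factors (edgeR 4.0.16), means over barcodes, at most 1% mitochondrial UMIs and no low-count filter. Strict hepatocyte barcodes are hepatocyte barcodes without a UMI of any marker on the other cell types' lists. They were 903 (30.7% of kept barcodes) in shBicd2 and 1393 (51.0%) in scramble. Strict marker barcodes had at least 2 UMIs of Ptprc, Ptprb and Dcn together, 68 in shBicd2 and 71 in scramble. Leaving out the highest barcode of each gene, and hepatocyte barcodes with other markers, was added after seeing the data.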

Additional observations from a re-analysis of the deposited data

Results flagged for a closer look

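With all barcodes counted, the Cxcl10 ratio lay on opposite sides of 1 between classes. Its ratio, shBicd2 over scramble, was 0.812 (0.789 to 0.836) in hepatocyte barcodes and 0.664 (0.590 to 0.747) in marker barcodes, both below 1, but 1.68 (1.12 to 2.62) in monocyte/macrophage-marker barcodes. The difference between the classes was not tested. In the monocyte/macrophage-marker class 1 shBicd2 barcode held 89 of the 175 Cxcl10 UMIs. Without the highest barcode of each library the levels were 1434 CPM (86 UMIs) in shBicd2 and 1107 CPM (19 UMIs) in scramble. No interval was computed for the ratio of these levels, so its side of 1 is not settled.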

How the results depend on the processing

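Each group has 1 library, so no library could be left out, and no paired analysis was possible because each group has 1 library. Of the 14 ratios between libraries measured in hepatocyte and marker barcodes, 6 were called, against 3 after thinning to 1000 UMIs and 2 in strict classes. In both settings fewer barcodes and UMIs entered, and the cause was not tested further. Members with a ratio above 1 in marker over hepatocyte barcodes of shBicd2 numbered 6, against 3 after thinning. Under the other settings these counts were within 1.5 times of those given. Of 240 single ratios under the alternatives listed at the outset 161 moved by less than their counting interval, 79 moved further and 0 of those called changed direction. Under the alternatives added after seeing the data 39 of 43 moved by less and 4 further. Ccl2 in hepatocyte barcodes was called under each alternative with an interval, at 2.93 to 3.79. In strict classes Cxcl16 (3.78, 29 UMIs) and Ccl4 (44 UMIs) had too few UMIs for a call in hepatocyte barcodes. Ccl2 in marker barcodes was not called in strict classes, at 2.18 (1.35 to 3.61). Marker over hepatocyte ratios of scramble in strict classes were also larger for Cxcl16 (13.8) and Ccl3 (20.7), on few UMIs, and without the highest barcode Ccl7 was at 5.23, uncalled on 48 UMIs. As an unweighted mean over barcodes Cxcl9 in marker over hepatocyte barcodes of shBicd2 was 1.06. TMM factors shifted all log2 ratios by -0.16 in hepatocyte barcodes, -0.02 in marker barcodes, and -0.23 in shBicd2 and -0.30 in scramble for marker over hepatocyte barcodes. Depth limits Cx3cl1 and Ccl3 in every class, and Ccl7, Cxcl16 and Ccl4 outside hepatocyte barcodes.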
